A study of Mus musculus with 12 samples.

Results

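The CCR4-NOT complex shortens the poly(A) tails of cytoplasmic mRNAs, and the mRNAs for 9 of its subunits were followed through the nuclei and cytoplasms of growing mouse oocytes with and without Mtr4. The 9 genes were taken by symbol, Cnot1, Cnot2, Cnot3, Cnot4, Cnot6, Cnot6l, Cnot7, Cnot8 and Cnot10, and all 9 were found among 23235 gene entries. All 9 were also among the 13157 entries that reached 1 FPKM in at least 3 of the 12 libraries and were tested. FPKM scales fragments by transcript length and by the mapped fragments of a library, so levels of different genes are compared per length.

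Oocytes came from mice at day 14 and were either Mtr4-null or wild type (WT), and each was divided by micromanipulation into nucleus and cytoplasm. The 4 groups were Mtr4-null nucleus, Mtr4-null cytoplasm, WT nucleus and WT cytoplasm, with 3 libraries each and 10 nuclei or 10 cytoplasms pooled in a library. Libraries were made from TRIzol-extracted total RNA after removal of ribosomal RNA, and both ends were read for 150 bp. Of the allele, the way in which Mtr4 was removed and the strain, nothing is given in the sources used here. Whether libraries of the same group derive from different mice is not said in the labels, and the p-values therefore reflect a spread between libraries that may be only technical. The comparisons ask which RNAs differ in each compartment when MTR4, the RNA helicase of the nuclear exosome, is missing, and how the nucleus and the cytoplasm share them.

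CCR4-NOT is built on the scaffold protein CNOT1. Its catalytic subunits are of a CCR4 type, encoded by Cnot6 and Cnot6l, and of a CAF1 type, encoded by Cnot7 and Cnot8, and a complex is thought to carry a single one of each type. CNOT2 and CNOT3 form the NOT module, CNOT10 binds the N-terminal part of CNOT1 together with CNOT11, and CNOT4 is a RING ubiquitin ligase that in mammals is not a stable part of the complex. In mouse oocytes the complex is known for its part in clearing maternal mRNAs around meiotic maturation, to which it is brought by adaptors such as BTG4 and ZFP36L2, and Cnot7 mRNA is known to be stored untranslated in the growing oocyte.

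The catalytic subunits come in pairs of paralogs, so a stretch of each pair is shown to let a reader judge whether fragments of one could be counted as the other. The 90 bases are from the coding sequences of the GENCODE M21 transcripts of build GRCm38, on the coding strand, with positions counted from 1 at the start codon. Capitals mark the bases that differ from the paralog.
Cnot8, chromosome 11, coding bases 428 to 517: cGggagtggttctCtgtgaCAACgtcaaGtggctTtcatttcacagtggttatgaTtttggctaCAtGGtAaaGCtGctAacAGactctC
Cnot7, chromosome 8, coding bases 428 to 517: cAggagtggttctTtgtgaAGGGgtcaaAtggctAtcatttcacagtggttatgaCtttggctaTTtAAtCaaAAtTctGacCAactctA
Cnot6l, chromosome 5, coding bases 1259 to 1348: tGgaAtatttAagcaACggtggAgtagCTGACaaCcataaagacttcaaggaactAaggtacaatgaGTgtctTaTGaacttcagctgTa
Cnot6, chromosome 11, coding bases 1265 to 1354: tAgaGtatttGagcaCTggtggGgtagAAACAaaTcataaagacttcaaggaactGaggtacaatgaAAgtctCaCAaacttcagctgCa
These windows hold the longest identical run of each pair, which was 20 bases in both. Over the aligned coding sequence Cnot8 and Cnot7 were 71.65% identical (857 bases) and Cnot6l and Cnot6 were 73.65% identical (1651 bases). The reads were 150 bases long.

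The last 100 bases of the annotated 3′ end were searched on the sense strand for TTTTAT, the core of the cytoplasmic polyadenylation element by which stored oocyte mRNAs are recruited. It was present in 3 of the 8 subunits searched, against 13.8% of 19064 genes. Cnot8 was not searched, because the 3′ end of its transcript is annotated as incomplete. The form TTTTAAT was searched too and was in no subunit searched, while 17.8% of the genes had either form. The element is in capitals with its flanks, to show its distance from the end.
Cnot7, chromosome 8, 20 bases from the end: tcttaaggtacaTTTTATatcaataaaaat
Cnot3, chromosome 7, 19 bases from the end: atgaataaatagTTTTATatgacggctggc
Cnot1, chromosome 8, 71 bases from the end: aagatgtattgaTTTTATatatgtgagtac
A match describes these letters in this window and is not a site shown to act.

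Some libraries stand apart and touch the results that follow. Mtr4 itself, listed under the symbol Skiv2l2, was at 1.04, 0.315 and 0.700 FPKM in Mtr4-null cytoplasms, against 21.1, 19.4 and 20.2 FPKM in WT cytoplasms (log2 fold change -3.68 ± 0.19, SE). It was at 7.98, 0.182 and 1.12 FPKM in the nuclei labelled Mtr4-null, against 6.06, 2.45 and 5.37 FPKM in WT nuclei, so replicate 1 goes against its label. The nucleus labelled Mtr4-null replicate 3 had a Spearman correlation across genes of 0.931 with Mtr4-null cytoplasm replicate 1 and of 0.792 to 0.806 with the WT nuclei. Replicate 2 of those nuclei was at 0.784 to 0.811 with the Mtr4-null cytoplasms and at 0.715 to 0.747 with the WT nuclei. With the WT cytoplasms it was at 0.720 to 0.747. Replicate 1 was at 0.790 to 0.802 with the Mtr4-null cytoplasms and at 0.858 to 0.862 with the WT nuclei. Relative depth, read from the smallest values and set against WT cytoplasm replicate 1, was 0.125 to 0.435 in the nuclei and 0.574 to 1.41 in the cytoplasms, and absolute depth is unknown. The Cajal body RNA Scarna2 held 58.0 to 81.7% of all FPKM in a nucleus and 0 to 5.13% in a cytoplasm. As FPKM is scaled by length, this is not its share of mapped fragments. How far it lowers the FPKM of other nuclear RNAs was not tested. All 11 oocyte markers were above 0 in every library, with sums of 11274 to 16746 FPKM in Mtr4-null cytoplasms and 11094 to 11891 FPKM in WT cytoplasms. The 8 blood and endothelium markers summed to 13.8 to 21.6 FPKM in Mtr4-null cytoplasms and 16.7 to 25.2 FPKM in WT cytoplasms. Most of this was Pecam1, at a mean of 14.1 FPKM in Mtr4-null and 12.8 FPKM in WT cytoplasm. Tek was at 3.33 and 6.67 FPKM in the same groups, and Hba-a1 and Hbb-b1 were listed at 0 in both. The 10 theca and stroma markers summed to at most 1.15 FPKM in any cytoplasm. In nuclei the theca and stroma markers summed to 1.51 to 2.82 FPKM in those labelled Mtr4-null and to 1.18, 5.37 and 37.0 FPKM in WT, the highest in WT nucleus replicate 2, where Col1a1 was at 18.4 FPKM. Without that nucleus 0 subunits were called between the nuclei, against 0.0380% of all genes. Between the WT compartments 9 of 9 were, against 70.7% of all genes in either direction. The part of these markers in the results was not tested.

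In the cytoplasm of Mtr4-null oocytes 3 subunits were lower than in WT cytoplasm and none was higher. Cnot7, a CAF1-type deadenylase, was at 0.554 of its WT level, while its paralog Cnot8 was at 0.945. Cnot6l, the more abundant CCR4-type deadenylase, was at 0.674 and Cnot10 at 0.679. Over all genes tested 23.2% were called in this comparison, 13.3% as higher and 9.85% as lower, at an adjusted p below 0.05 (limma with Benjamini-Hochberg adjustment over 13157 genes). All 9 subunits had a log2 fold change below 0, with a median of -0.56, where the median of all genes was 0. The ranges of the 3 Mtr4-null and 3 WT libraries did not overlap for 6 of the 9 subunits, all lower in Mtr4-null, against 43.9% of all genes in either direction and 20.9% lower.

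**Figure D1:**
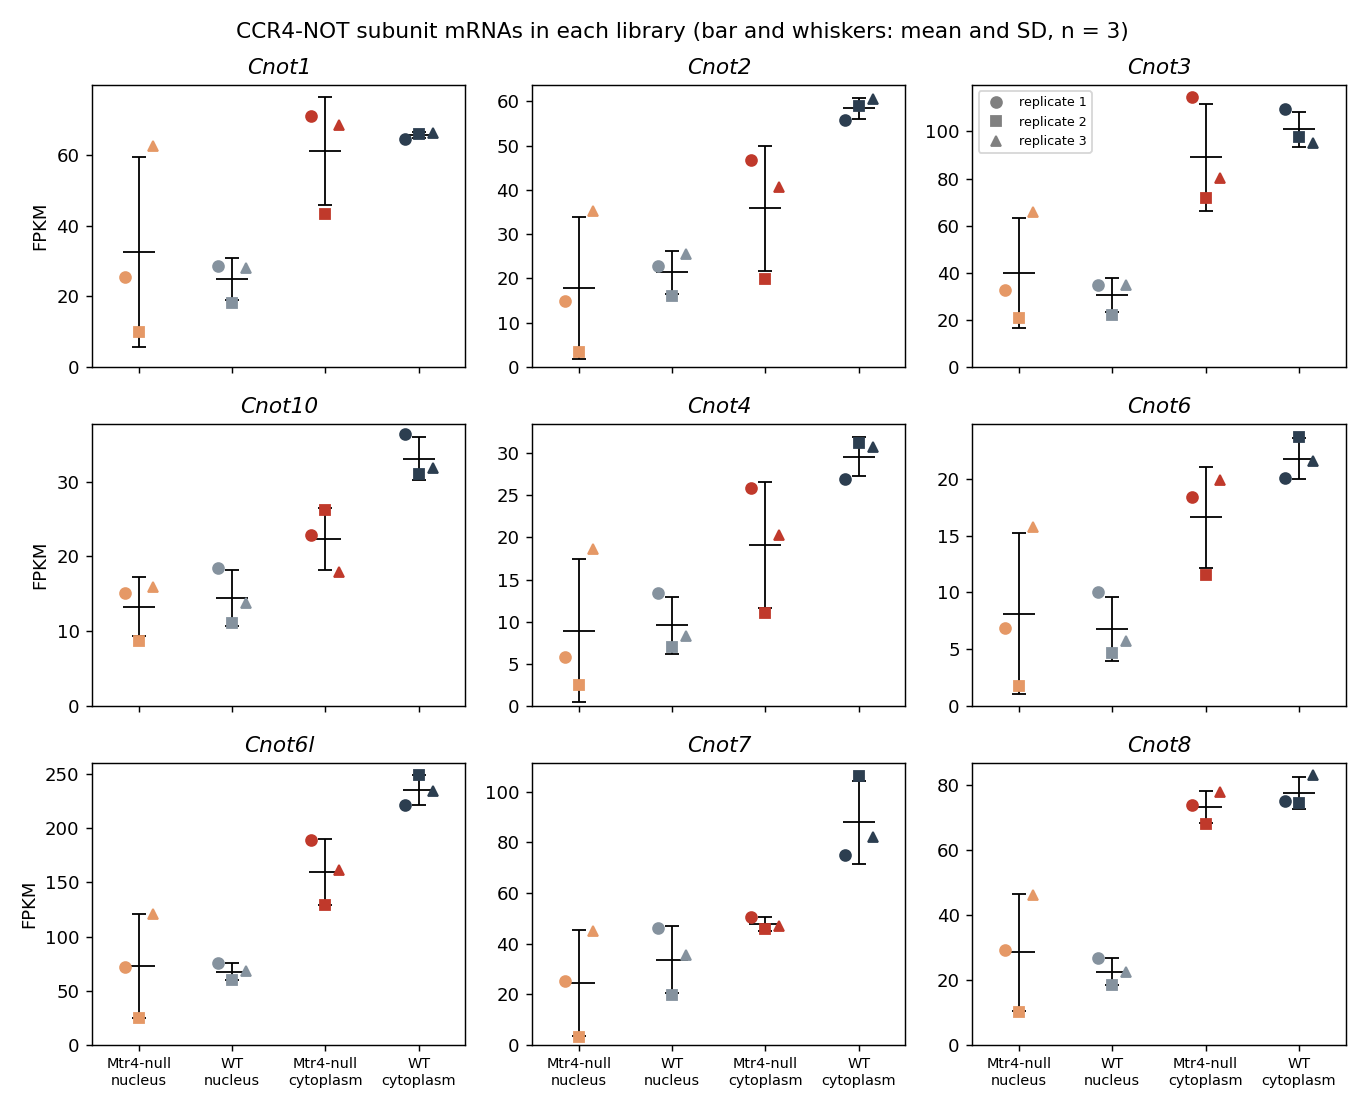
FPKM of each of the 9 subunits (vertical axes, each from 0) in the 12 libraries by group, with a point per library and bars and whiskers for the mean and SD of 3. Cnot7 and Cnot6l are lower in all 3 Mtr4-null cytoplasms than in any WT cytoplasm, while the Mtr4-null and WT values of Cnot8 overlap in both compartments.

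Among the CAF1-type deadenylases, Cnot7 was at 50.7, 45.7 and 46.8 FPKM in Mtr4-null cytoplasms, against 75.1, 106 and 82.2 FPKM in WT cytoplasms. The 3 Mtr4-null libraries lay close together and all below the lowest WT library. The means were 47.7 ± 2.61 FPKM in Mtr4-null and 87.9 ± 16.3 FPKM in WT (SD, n = 3 each), and the log2 fold change of -0.85 ± 0.14 had a limma adjusted p of 0.011. This call was kept when each library was left out in turn (adjusted p 0.019 to 0.044) and in 6 of the 7 other settings, the exception being a single fit of all 4 groups (adjusted p = 0.72).

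Cnot8 was at 73.7, 68.1 and 77.9 FPKM in Mtr4-null cytoplasms, against 75.2, 74.4 and 83.2 FPKM in WT cytoplasms. The ranges overlapped, and the log2 fold change of -0.08 ± 0.09 (limma adjusted p = 0.53) had a 95% interval of -0.29 to 0.13. The interval excludes a fall of the size measured for Cnot7, whose own interval was -1.20 to -0.51.

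Taken as a share of the summed FPKM of the paralog pair, Cnot8 made up 59.3, 59.9 and 62.4% in Mtr4-null cytoplasms, against 50.01, 41.2 and 50.3% in the WT cytoplasms. In the nuclei labelled Mtr4-null it made up 53.6, 75.8 and 50.5%, against 36.7, 48.3 and 38.8% in the WT nuclei. In the cytoplasm every Mtr4-null library lay above every WT library. The nuclei did not overlap by their labels either, but replicate 1 of those labelled Mtr4-null goes against its label. No linear scaling of a library changes the share, because both genes are divided by the same total. It was computed after the levels of both genes were known and is given as a description, with no test.

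**Figure D2:**
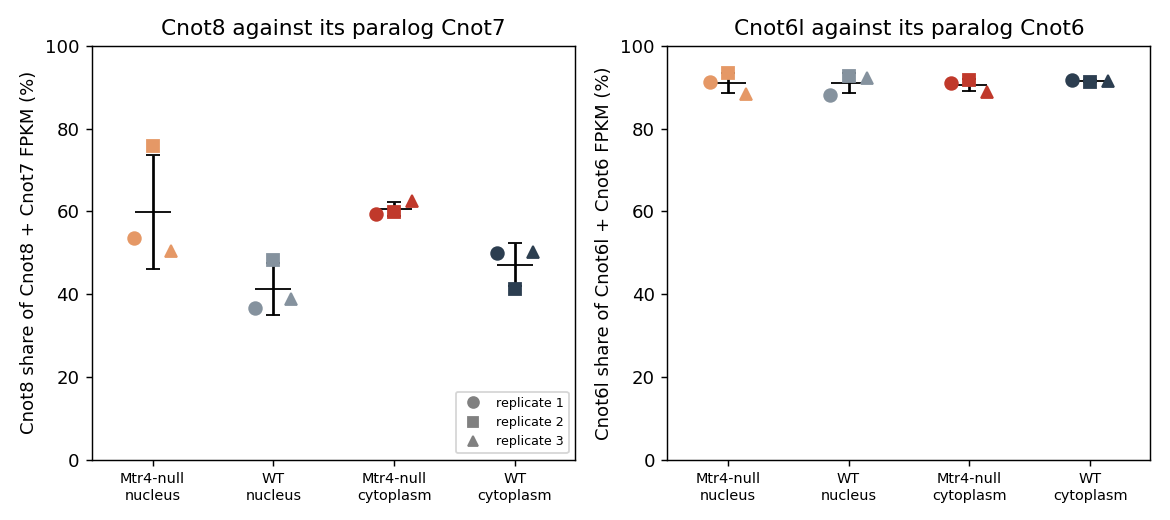
Share of Cnot8 in the summed FPKM of Cnot8 and Cnot7 (left, percent) and of Cnot6l in that of Cnot6l and Cnot6 (right, percent), with a point per library and bars and whiskers for the mean and SD of 3. The Cnot8 share is 60.5 ± 1.69% in Mtr4-null cytoplasm and 47.2 ± 5.20% in WT cytoplasm, while the Cnot6l share stays between 88.3 and 93.5% in all 12 libraries.

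Among the CCR4-type deadenylases, Cnot6l was at 189.7, 129 and 161 FPKM in Mtr4-null cytoplasms, against 222, 249 and 234 FPKM in WT cytoplasms. All 3 Mtr4-null libraries were below the WT range, with replicate 2 the lowest. Limma gave a log2 fold change of -0.57 ± 0.15 (adjusted p = 0.045), with means of 159.9 ± 30.4 FPKM in Mtr4-null and 235 ± 13.8 FPKM in WT (SD, n = 3 each). The call was close to the threshold and was kept in 2 of 7 other settings (adjusted p 0.021 to 0.75) and in 2 of the 6 fits that left out a library (0.027 to 0.15). Cnot6, its less abundant paralog, was at 18.4, 11.6 and 19.96 FPKM in Mtr4-null cytoplasms, against 20.1, 23.7 and 21.6 FPKM in WT cytoplasms. These ranges met without overlapping, and the log2 fold change of -0.40 ± 0.21 did not pass (limma adjusted p = 0.21). Cnot6l made up 90.6 ± 1.46% of the summed FPKM of this pair in Mtr4-null cytoplasm and 91.5 ± 0.19% in WT cytoplasm (SD, n = 3 each), and the ranges overlapped.

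Cnot10, which binds the N-terminal arm of CNOT1, was at 22.9, 26.2 and 17.9 FPKM in Mtr4-null cytoplasms, against 36.4, 31.0 and 31.8 FPKM in WT cytoplasms. The ranges did not overlap, and unlike most subunits Cnot10 was highest in Mtr4-null replicate 2. The log2 fold change was -0.56 ± 0.15 with a limma adjusted p of 0.049. That call is at the threshold: it was kept in 0 of 7 other settings (adjusted p 0.052 to 0.55) and in 1 of 6 fits without a library (0.028 to 0.13), while the log2 fold change stayed between -0.68 and -0.41.

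The scaffold Cnot1 was at 71.1, 43.4 and 68.5 FPKM in Mtr4-null cytoplasms, against 64.6, 66.0 and 66.1 FPKM in WT cytoplasms. Mtr4-null replicates 1 and 3 were above all 3 WT libraries and replicate 2 below them, so the log2 fold change of -0.14 ± 0.19 (limma adjusted p = 0.64) turned to 0.09 without replicate 2. The NOT-module subunit Cnot2 was at 46.7, 19.9 and 40.7 FPKM in Mtr4-null cytoplasms, against 55.9, 58.8 and 60.5 FPKM in WT cytoplasms. All 3 Mtr4-null values of Cnot2 were below the WT range but far apart, and its log2 fold change of -0.78 ± 0.31 did not pass (limma adjusted p = 0.12). Without Mtr4-null cytoplasm replicate 2 it was smaller, -0.41, and passed (limma adjusted p = 0.030).

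Cnot3, the other NOT-module subunit, was at 114.8, 71.9 and 80.4 FPKM in Mtr4-null cytoplasms, against 109, 97.9 and 95.3 FPKM in WT cytoplasms. These ranges overlapped (log2 fold change -0.20 ± 0.18, limma adjusted p = 0.45). Cnot4, the ubiquitin ligase, was at 25.9, 11.0 and 20.3 FPKM in Mtr4-null cytoplasms, against 26.9, 31.2 and 30.7 FPKM in WT cytoplasms. Its ranges did not overlap, and its log2 fold change of -0.68 ± 0.30 did not pass (limma adjusted p = 0.15).

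**Figure D3:**
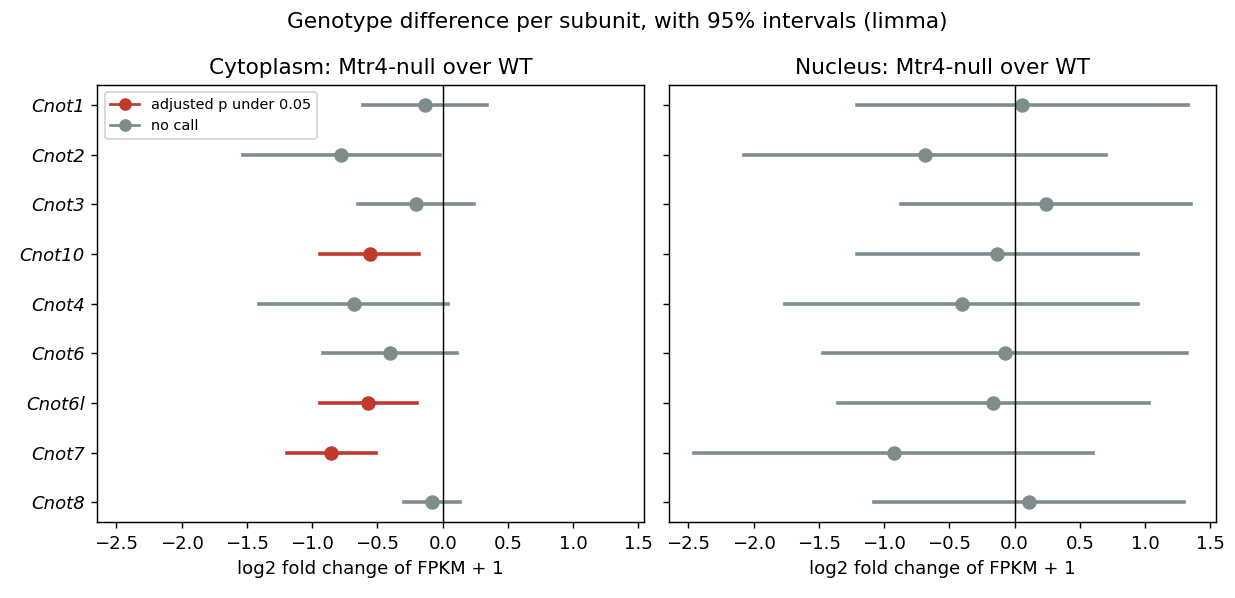
Log2 fold change of FPKM + 1, Mtr4-null over WT, for each of the 9 subunits in the cytoplasm (left) and the nucleus (right), with 95% intervals from limma and red for an adjusted p under 0.05. The cytoplasmic values run from -0.85 for Cnot7 to -0.08 for Cnot8, and every nuclear interval includes 0.

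The 9 subunits together summed to 525 ± 93.9 FPKM in Mtr4-null cytoplasm and 710 ± 26.9 FPKM in WT cytoplasm (SD, n = 3 each). Mtr4-null replicate 2 was the lowest Mtr4-null cytoplasm for every subunit except Cnot10. Without it 4 subunits were called lower, Cnot2, Cnot6l, Cnot7 and Cnot10, against 23.7% of all genes called in either direction. The summed markers of granulosa cells, which surround the oocyte, were lower in Mtr4-null cytoplasms too, while the single markers went both ways. Of 12 such genes 4 were tested and 2 were called lower, Kitl and Nr5a2, and the list summed to 20.2 to 27.01 FPKM in Mtr4-null cytoplasms and 34.2 to 41.0 FPKM in WT cytoplasms. Nr5a2 alone accounted for most of these sums, at 18.6 ± 2.64 FPKM in Mtr4-null and 28.5 ± 2.01 FPKM in WT cytoplasm (SD, n = 3 each). Cyp19a1, at 2.07 ± 0.73 FPKM in Mtr4-null and 3.93 ± 1.58 FPKM in WT cytoplasm, and Inha, at 0.44 ± 0.40 FPKM and 1.56 ± 0.83 FPKM in the same groups, were also lower on average. So were Inhba, at 0.21 FPKM in Mtr4-null and 0.34 FPKM in WT cytoplasm, and Hsd17b1, at 0.17 and 0.19 FPKM. Fshr, Foxl2 and Amh were at or below 1.16 FPKM in every cytoplasm and higher on average in Mtr4-null. Higher on average too were Amhr2 (0.137 FPKM in Mtr4-null and 0.014 FPKM in WT cytoplasm), Inhbb (0.087 and 0.041 FPKM) and Fst (0.044 and 0.007 FPKM). Fst was listed at 0 in 2 cytoplasms of each genotype. The part of the granulosa markers in the result was not tested. In these pooled samples fewer cells of a type and less RNA per cell cannot be told apart.

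Of 3 further subunits 1 was called higher and 0 were called lower by limma. Cnot11, under its older symbol D1Bwg0212e, was at 56.2, 77.4 and 72.5 FPKM in Mtr4-null cytoplasms, against 64.4, 64.1 and 72.9 FPKM in WT cytoplasms. Cnot9, under the symbol Rqcd1, was at 42.0, 41.3 and 43.7 FPKM in Mtr4-null cytoplasms, against 41.0, 45.9 and 41.9 FPKM in WT cytoplasms. Tnks1bp1, which encodes a large CCR4-NOT associated protein, was higher at 78.6, 79.9 and 75.4 FPKM in Mtr4-null cytoplasms, against 55.6, 50.1 and 55.0 FPKM in WT cytoplasms (log2 fold change 0.53 ± 0.08, limma adjusted p = 0.0072).

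Genes that work beside the complex were counted from lists chosen with earlier results of these data known, and the share of all genes called above is the background for each. Of 20 adaptors that recruit CCR4-NOT to mRNAs, 0 were called in either direction by limma, with 3 under quantile normalization, 1 under each of the other scalings and 0 to 2 without each library in turn. Btg4, the most abundant adaptor, was at 768.5, 815 and 676.5 FPKM in Mtr4-null cytoplasms, against 866, 951 and 753 FPKM in WT cytoplasms. Tob2, another member of that family, had a log2 fold change of 0.01 ± 0.09. Of 9 other deadenylases 1 was higher, Angel1 (log2 fold change 0.66), and 2 were lower, Angel2 (-0.70) and Ccrn4l, now called Noct (-0.65).

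Of 12 poly(A)-binding proteins and their partners 1 was called higher and 4 lower. Pabpn1l, an oocyte poly(A)-binding protein, was at 143, 97.2 and 146 FPKM in Mtr4-null cytoplasms, against 357, 303 and 301 FPKM in WT cytoplasms (log2 fold change -1.33 ± 0.18, limma adjusted p = 0.0067). Larp4, which binds poly(A) and its binding protein, averaged 17.7 ± 2.73 FPKM in Mtr4-null and 36.7 ± 2.90 FPKM in WT cytoplasm (SD, n = 3 each), a log2 fold change of -1.02. Larp1, which binds mRNAs of ribosomal proteins, was higher (0.62).

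Of 20 decapping and 5′-to-3′ decay genes 2 were lower, the exonuclease Xrn1 (log2 fold change -0.85) and the decapping enzyme Dcp2 (-0.62), and 0 were higher by limma. Of 17 genes of poly(A) addition and uridylation 1 was higher, Cpeb2 (1.20), and 2 were lower, the poly(A) polymerase Papolg (-0.95) and the cleavage factor Cpsf2 (-0.68). These calls depend on single libraries: without WT cytoplasm replicate 2, WT cytoplasm replicate 3 or Mtr4-null cytoplasm replicate 3, 0 genes were called in the decapping list and 0 in the poly(A) addition list. The poly(A) addition list had 5 calls without Mtr4-null cytoplasm replicate 1 and 6 with median-of-ratios scaling. Without each library in turn Dcp2 was called in 1 of 6 fits, and Xrn1, Papolg and Cpeb2 in 2 of 6 each. In the 7 other settings Dcp2 was called in 2, and in the single fit of all 4 groups 0 genes of the 6 lists were called. Among the other lists the calls without each library in turn ran from 1 to 3 for the deadenylases and 2 to 5 for the poly(A)-binding proteins, where Pabpn1l and Larp4 were called in all 6 fits. The medians of the 6 lists lay between -0.37 and 0.02, against 0 for all genes.

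**Figure D4:**
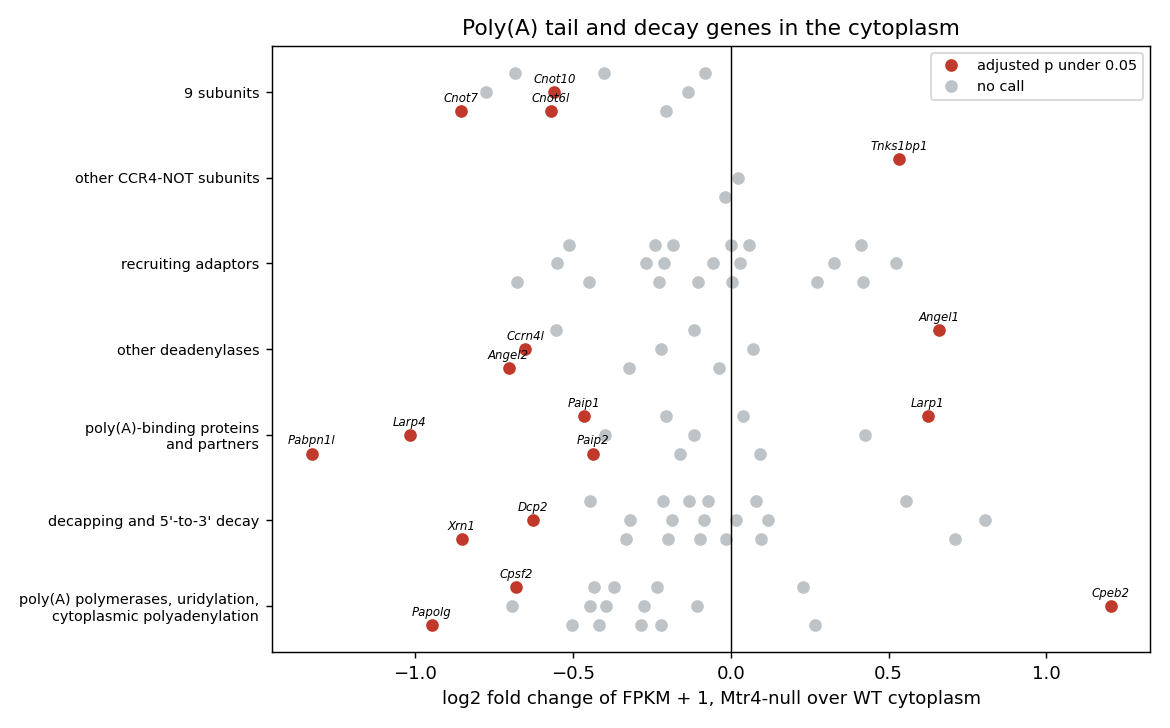
Log2 fold change of FPKM + 1 in the cytoplasm, Mtr4-null over WT (horizontal axis), for the 9 subunits and the 6 lists of poly(A) tail and decay genes, with a point per tested gene and red for an adjusted p under 0.05. Pabpn1l lies farthest to the left at -1.33 and Cpeb2 farthest to the right at 1.20, and no adaptor is red on the deposited scale.

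In the nucleus 0 of the 9 subunits were called, with 0.0380% of all genes called by limma (5 of 13157). At an unadjusted p under 0.05 there were 1025 genes and 0 subunits. The log2 fold changes ran from -0.93 for Cnot7 to 0.24 for Cnot3, and all 9 pairs of ranges overlapped, against 12.9% of all genes without overlap. Cnot7 was at 25.3, 3.25 and 45.0 FPKM in the nuclei labelled Mtr4-null, against 46.0, 19.6 and 35.5 FPKM in WT nuclei, and its 95% interval ran from -2.45 to 0.60. Cnot6l was at 71.7, 24.7 and 121 FPKM in the nuclei labelled Mtr4-null, against 75.3, 59.5 and 68.2 FPKM in WT nuclei. Cnot8 was at 29.2, 10.2 and 46.0 FPKM in the nuclei labelled Mtr4-null, against 26.7, 18.3 and 22.5 FPKM in WT nuclei.

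The same order of libraries held for all 9 subunits in the nuclei labelled Mtr4-null, with replicate 3 the highest and replicate 2 the lowest. Their sums were 227, 85.3 and 426 FPKM in replicates 1, 2 and 3, against 276, 176 and 242 FPKM in WT nuclei. Without replicates 1 and 3 all 9 log2 fold changes were below 0, from -2.95 for Cnot7 to -0.50 for Cnot3. These values rest on 1 library labelled Mtr4-null, replicate 2, which is assumed to vary like the WT nuclei. That library too correlates more with Mtr4-null cytoplasms than with WT nuclei. Its correlations with WT cytoplasms (0.720 to 0.747) and with WT nuclei (0.715 to 0.747) were alike, and Scarna2 held 70.2% of its FPKM. With all 3 libraries a difference of the size measured in the cytoplasm was not detectable at this spread. The 6 lists of tail and decay genes had 0 calls by limma in the nucleus too, and 0 in Mtr4-null nucleus over cytoplasm.

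The difference of the genotype effects between the compartments was called for 0 of the 9 subunits, with 0.122% of all genes called by limma (16 of 13157, with 1321 genes and 0 subunits at an unadjusted p under 0.05). For the 3 subunits called in the cytoplasm it was -0.07 ± 0.89 for Cnot7, 0.41 ± 0.62 for Cnot6l and 0.43 ± 0.46 for Cnot10 (nucleus minus cytoplasm, log2, SE). The fall in the cytoplasm is therefore not shown to differ from the nucleus. Without nuclei labelled Mtr4-null 1 and 3 the difference was -2.10 for Cnot7, -0.84 for Cnot6l and -0.083 for Cnot10. That fit holds a single nucleus labelled Mtr4-null, replicate 2, the shallowest library, which is assumed to vary like the other groups. Replicate 2 also correlates more with Mtr4-null cytoplasms than with WT nuclei, while its correlations with WT cytoplasms and WT nuclei were alike.

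In WT oocytes all 9 subunits were lower in the nucleus than in the cytoplasm on the FPKM scale, as were most mRNAs. The log2 fold changes ran from -1.79 ± 0.16 for Cnot6l to -1.16 ± 0.21 for Cnot10, with 9 of 9 called (limma adjusted p 0.00016 to 0.0044) and no overlap of ranges. Of all genes 68.1% were called, 55.0% as lower, 59.4% were lower without overlap, and the median of all genes was -0.90. The subunits were thus 0.27 to 0.89 below that median on the scale of log2(FPKM + 1). This distance depends on the pseudocount. With a pseudocount of 0.1 the median of all genes was lower, at -1.12, and no subunit fell below -1.80 (Cnot6l) in any of the 7 other settings. Cnot6l was at 75.3, 59.5 and 68.2 FPKM in WT nuclei, against 222, 249 and 234 FPKM in WT cytoplasms. Cnot10, the subunit with the smallest difference, was at 18.5, 11.1 and 13.7 FPKM in WT nuclei, against 36.4, 31.0 and 31.8 FPKM in WT cytoplasms.

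Where the scale was set by the typical gene rather than by the mapped total, the differences shrank. With median-of-ratios scaling the median of all genes moved to -0.05 and 5 subunits were called lower, against 41.2% of all genes called in either direction. With quantile normalization it moved to -0.22 and 3 were called, Cnot3 (-0.34), Cnot6l (-0.46) and Cnot8 (-0.45), against 33.6% of all genes. That background too counts both directions, and the share of subunits called is near it. The share of genes called lower alone is not given for these scalings. Cnot10 stood at 0.01 under quantile normalization. The 3 scalings and the deposited scale put Cnot6l below the median of all genes.

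On the deposited scale most genes of the 6 lists of tail and decay genes were lower in the WT nucleus too, against 55.0% of all genes called lower. The lists were not counted under the other scalings. Called lower were 3 of 3 further subunits, 14 of 20 adaptors, 8 of 9 other deadenylases, 10 of 12 poly(A)-binding proteins and partners, 17 of 20 decapping and decay genes and 15 of 17 genes of poly(A) addition. The leading genes of each list were Rqcd1 (log2 fold change -1.78), Btg4 (-2.14), the mitochondrial deadenylase Pde12 (-1.87), Pabpn1l (-2.07), the Sm-like protein Lsm5 (-2.64) and Papolg (-1.99). Higher in the WT nucleus were 1 adaptor, Nanos3, with 7.15, 3.86 and 0.834 FPKM in WT nuclei against a listed 0 in all 3 WT cytoplasms, and 1 poly(A)-binding protein, Pabpc6 (1.36).

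**Figure D5:**
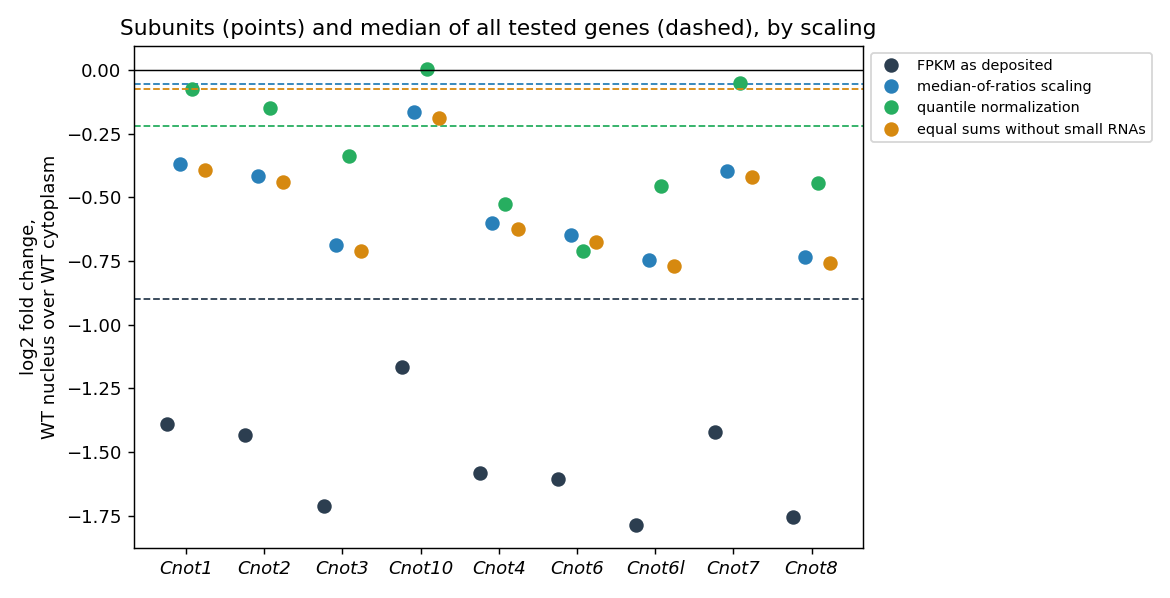
Log2 fold change of FPKM + 1, WT nucleus over WT cytoplasm, for each of the 9 subunits on the deposited scale and under 3 other scalings (points), with the median of all tested genes under each scaling as a dashed line. As deposited all 9 points lie at -1.16 or lower, and Cnot10 is the subunit that crosses 0 under quantile normalization.

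In Mtr4-null oocytes all 9 subunits again had log2 fold changes below 0, nucleus over cytoplasm. They ran from -1.56 ± 0.54 for Cnot8 to -0.74 ± 0.41 for Cnot10, and 0 were called (limma adjusted p 0.16 to 0.20). At an unadjusted limma p under 0.05 there were 3 subunits, against 4150 of the 13157 genes. Of all genes 0.935% were called, and the median was -0.82. The ranges of 5 subunits did not overlap, against 35.8% of all genes that were lower without overlap. Cnot8 was at 29.2, 10.2 and 46.0 FPKM in the nuclei labelled Mtr4-null, against 73.7, 68.1 and 77.9 FPKM in Mtr4-null cytoplasms. The nucleus labelled Mtr4-null replicate 3 decides these calls. Like replicate 2, it correlates more with Mtr4-null cytoplasms than with WT nuclei. Unlike replicate 2, it also correlates more with WT cytoplasms (0.870 to 0.891) than with WT nuclei (0.792 to 0.806). Without replicate 3, 8 subunits were called lower (log2 fold change -2.20 for Cnot7 to -1.71 for Cnot3), all but Cnot10, against 54.3% of all genes in either direction. Without replicates 1 and 3 together 9 were called, against 65.3% of all genes, and that fit holds 1 nucleus labelled Mtr4-null, which is assumed to vary like the cytoplasms.

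The order of levels among the subunits was headed by Cnot6l in every group. In the Mtr4-null cytoplasm it was followed by Cnot3, Cnot8, Cnot1, Cnot7, Cnot2, Cnot10, Cnot4 and Cnot6, and Cnot6l was 1.80 times the mean of Cnot3, while the ranges of all later neighbours overlapped. In the WT cytoplasm the order was Cnot6l, Cnot3, Cnot7, Cnot8, Cnot1, Cnot2, Cnot10, Cnot4 and Cnot6, with Cnot6l 2.33 times the mean of Cnot3. There Cnot3, Cnot7 and Cnot8 overlapped from neighbour to neighbour, as did Cnot10 and Cnot4, and the other neighbours were apart. By group means Cnot7 thus took the fifth place in Mtr4-null cytoplasm and the third in WT cytoplasm. Single libraries did not all keep these places. Cnot7 was above Cnot8 in 1 of 3 WT cytoplasms, and Cnot1 was above Cnot7 in 2 of 3 Mtr4-null cytoplasms.

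In the nuclei the order was headed by Cnot6l as well, and its mean was 1.82 times that of the next subunit, Cnot3, in the nuclei labelled Mtr4-null, with overlapping ranges. In the WT nuclei it was 2.01 times the next, Cnot7, without overlap, and all later neighbours overlapped. Ranked among all tested genes, which needs no scaling, Cnot6l was at percentile 97.0 to 97.8 in the WT nuclei and 98.0 to 98.5 in the WT cytoplasms. Cnot6, the lowest subunit, was at percentile 45.4 to 65.5 in the WT nuclei and 66.5 to 71.3 in the WT cytoplasms.

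The genes most like the subunits over the 12 libraries were found by Pearson correlation of log2(FPKM + 1), which is a description here, since the points share depth, compartment and the Scarna2 share. For Cnot6l they were Lsm14a (0.998), Usp53 (0.995) and Ctbp2 (0.995). For Cnot7 they were an entry whose symbol reads as a date, as spreadsheets turn some symbols into, Alg10b (0.988) and Tlk1 (0.985). For the mean of the 9 subunits they were Tbc1d15 (0.997), Hdlbp (0.997) and Kbtbd8 (0.996).

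Some subunits share exon bases with a gene on the other strand in the GENCODE annotation, and no source used here says whether strand was used in counting. Cnot7 shares 247 of 5821 exon bases with Zdhhc2, which was at or below 1.89 FPKM in every library. Cnot3 shares 433 of 7129 exon bases with Leng1, which was at 11.8, 15.04 and 8.63 FPKM in Mtr4-null cytoplasms, against 13.1, 10.6 and 11.0 FPKM in WT cytoplasms. Cnot3 also shares 86 exon bases on its own strand with Mir3572, which was listed at 0 in every library except WT nucleus replicate 3 (1968.5 FPKM). Cnot1 shares 132 exon bases with 4930513N10Rik, at or below 6.64 FPKM, and Cnot2 shares 232 with 5330438D12Rik, which was not analysed here.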

How the data were processed

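RNA was measured in 12 libraries, 3 for each combination of genotype and compartment, with 10 nuclei or cytoplasms per library (the design text speaks of duplicates, the labels show 3). The deposited values are FPKM, and the submitters' processing notes name TopHat2 2.1.1, Cufflinks 2.2.1 and build mm9. What each tool did, which annotation served and whether strand was used is not given in the sources used here. Columns were assigned to samples by title.

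Tested were the 13157 genes that reached 1 FPKM in at least 3 of 12 libraries, on log2(FPKM + 1), which understates the fold change of low genes, with limma 3.58.1 (R 4.3.3), moderated variances with a trend, two-sided p-values and Benjamini-Hochberg adjustment over all genes tested, with calls at an adjusted p below 0.05. Each comparison was fitted on the 2 groups compared, because nuclear libraries are shallower and vary more, and the difference of genotype effects on all 12 libraries. This keeps the compartments apart only between genotypes. The fits of nucleus over cytoplasm and of the difference of effects still assume the same spread in nuclei and cytoplasms. The script was tested on simulated data. Values after ± are SE for log2 fold changes and SD for FPKM.

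The subunits, lists and tests were chosen with earlier results of these data known. Named from each list were up to 3 called genes of largest change per comparison, or the 2 most abundant where none was called. Of the WT nucleus and cytoplasm comparison only the leading gene of each list and the 2 that were higher are named, and Pabpc6 and Nanos3 were named after their values were seen. Alternatives were 3 other scalings, a pseudocount of 0.1, no filter, a single fit of all 4 groups (for the difference of effects, array weights), a replicate block, and leaving out libraries. Coding sequences and exon overlaps come from GENCODE M21 (build GRCm38) with Biopython 1.88; no coordinates are given because the files use mm9. Absolute depth is unknown, so no detection limit is given.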

Additional observations from a re-analysis of the deposited data

How the results depend on the processing

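In the cytoplasm 3 subunits were called as reported, 2 with median-of-ratios scaling or a pseudocount of 0.1, 1 with quantile normalization, equal library sums without small RNAs, no filter or the replicate block, 0 with a single fit of all 4 groups, and 1 to 4 without each library in turn. All 3 calls stayed below 0 in every one of these settings. Over all genes median-of-ratios scaling called 3402 (25.9%), quantile normalization 3140 (23.9%) and equal sums 3229 (24.5%). The pseudocount of 0.1 gave 2947 genes (22.4%) and the fit without the filter 2308. Genes called over the table were 3050 as reported, 248 in the 4-group fit, 1487 with the replicate block and 1124 to 3114 without each library in turn, with 1124 without WT cytoplasm replicate 2, 1210 without WT cytoplasm replicate 3 and 1782 without Mtr4-null cytoplasm replicate 3. In WT nucleus over cytoplasm 9 subunits were called as reported, 5 with median-of-ratios scaling, 3 with quantile normalization and 3 with equal sums, and 9 without each library in turn, with 8958, 5421, 4420 and 4870 genes called over the table in the same order of scalings. In Mtr4-null nucleus over cytoplasm 0 were called as reported, 3 in the 4-group fit, 9 without nuclei labelled Mtr4-null 1 and 3, and 0 to 8 without each library in turn. Genes called there were 123 as reported, 223 with equal sums, 75 without the filter, 4230 in the 4-group fit, 981 with the replicate block, 8597 without both nuclei and 43 to 7139 without each library in turn, the highest without nucleus 3. In the nucleus between genotypes 0 subunits were called in every setting, while genes called were 5 as reported, 12 without the filter, 298 in the 4-group fit, 8 with the replicate block, 12 without both nuclei and 4 to 50 without each library in turn, the highest without nucleus 1, which goes against its label. For the difference of genotype effects 0 subunits were called as reported and 1 without both nuclei, with 16 genes as reported, 183 with median-of-ratios scaling, 76 with quantile normalization, 113 with equal sums, 111 without the filter, 961 with array weights, 1450 without both nuclei and 5 to 289 without each library in turn, with 170 without nucleus 1 and 289 without nucleus 3. Where a count moved, the cause was not tested.

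Log2 fold changes of subunits that changed sign were small or rested on the nuclei labelled Mtr4-null. In the cytoplasm Cnot8 was 0.0082 with quantile normalization and 1.8e-05 with equal sums, and Cnot1 ran from -0.26 to 0.088 without each library in turn. Between nuclei Cnot1 was -0.038 with median-of-ratios scaling, -0.20 with quantile normalization, -0.12 with equal sums and -1.21 without both nuclei, Cnot3 was -0.040 with quantile normalization and -0.50 without both nuclei, and Cnot8 was -0.13, -0.062 and -1.06 with quantile normalization, with equal sums and without both nuclei. Without each library in turn the nuclear values ran from -0.57 to 0.69 for Cnot1, -1.39 to 0.12 for Cnot2, -0.20 to 0.61 for Cnot3, -1.08 to 0.18 for Cnot4, -0.69 to 0.62 for Cnot6, -0.66 to 0.46 for Cnot6l, -1.63 to 0.086 for Cnot7, -0.34 to 0.70 for Cnot8 and -0.29 to 0.12 for Cnot10. Between compartments Cnot10 was 0.0054 in WT with quantile normalization, and in Mtr4-null 0.13 with median-of-ratios scaling and 0.16 with quantile normalization. For the difference of genotype effects Cnot6l was -0.018 with quantile normalization, -0.84 without both nuclei and -0.092 to 1.03 without each library in turn, Cnot7 was 0.15 with array weights and -0.78 to 0.94 without each library in turn, and Cnot10 was -0.083 without both nuclei.

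No label says that a replicate number pairs samples, and the correlation of same-numbered deviations ran from -0.15 to 0.30 without passing 0.1 in all 3 pairs of any comparison. With the replicate block Cnot7 kept its cytoplasmic call (adjusted p = 0.047) and Cnot6l and Cnot10 did not pass. Absolute depth is unknown, and relative depth was lower in the nuclei.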
